A study of Homo sapiens with 21 samples.

Results

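The mitochondrial respiratory chain is built from proteins of 2 genomes, and the transcripts described here are those of its nuclear-encoded subunits in AU565, a human breast cancer line of luminal type with an amplified ERBB2 gene. Members were chosen by name alone. A row of the count table was taken when its symbol began with NDUFA, NDUFB, NDUFC, NDUFS or NDUFV and a number, with UQCR, with COX4 to COX8 and a letter A to C, or with ATP5F1, ATP5M or ATP5P, or when it was SDHA, SDHB, SDHC, SDHD, CYCS or CYC1. This took 85 of 16553 rows, after 1 row annotated as a pseudogene had been left out. Of the 85, 81 are protein-coding genes and 4 are non-coding neighbours that share a name (NDUFV1-DT, NDUFA6-DT, NDUFV2-AS1 and NDUFB2-AS1), so all counts below refer to the 81. They comprise 36 genes of complex I, 4 of complex II, 10 of complex III, 13 of complex IV, 17 of complex V and the electron carrier CYCS. All 81 passed the filter on low counts and were tested. The rule does not reach COX4I1, NDUFAB1, ATP5IF1 and DMAC2L, which were followed as a separate list. No row of the count table carried the symbol COX4I2, COX6A2, COX6B2, COX7A1 or COX8C, so these were not analysed.

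The study exposed these cells to trastuzumab, a therapeutic antibody that binds HER2, the protein made from ERBB2, and compared flat monolayers with 3D aggregates grown in a liquid overlay with 5% matrigel. There were 7 groups with 3 libraries each, all of genotype WT. Monolayers were untreated, exposed to 20 µg/ml trastuzumab for 24 h and harvested (acute), or exposed in the same way and cultured 96 h longer (primed). Aggregates were untreated and harvested at 96 h, formed over 96 h from a monolayer exposed beforehand to 20 µg/ml for 24 h (primed), left 96 h and then given 50 µg/ml for 24 h (treated), or both primed and treated. Untreated monolayers have no stated culture time, and aggregates given the late dose were harvested 24 h later than those without it. The labels do not say whether the 3 libraries of a group came from separate cultures, and each p-value therefore rests on how far the libraries of a group lie apart, a spread that may be technical.

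Complex I takes electrons from NADH and complex II from succinate. Both pass them through ubiquinone to complex III, from which cytochrome c carries them to complex IV, where oxygen is reduced. Complexes I, III and IV pump protons, and complex V, the ATP synthase, lets them flow back through a ring of c subunits to drive its F1 head. In complex I the core subunits hold the flavin and the iron-sulfur clusters, while accessory subunits surround them. In mammals several subunits have tissue-specific or condition-specific paralogs, and the c ring is encoded by separate genes for one mature protein. ERBB2-driven breast cancer cells are known for high glycolysis, and cells inside aggregates can have limited access to oxygen and nutrients.

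Levels are given as CPM, the counts of a gene per library scaled to a common library size, and changes as log2 fold changes from edgeR's quasi-likelihood test with their standard error (SE). A gene was called at a Benjamini-Hochberg adjusted p under 0.05 over the 15969 genes tested. Members named for the largest rises and falls of a comparison were chosen among those whose libraries did not overlap. For them a lack of overlap is a condition of the choice and adds no separate support. Total counts ran from 15005070 to 26921113 per library. The 6 luminal markers EPCAM, KRT8, KRT18, KRT19, ERBB2 and GRB7 were above 1 CPM in every group, and summed to 12359 to 19798 CPM per library. Transcripts of other tissues split the libraries in 2 sets. TYRP1 and POSTN, markers of melanocytes and mesenchyme, stood at 5.70 CPM or more in the 12 libraries of untreated and acute monolayers and of untreated and primed aggregates, and at 0.256 or less in the other 9. UMOD and SNAP25, markers of kidney and brain, marked those 9 (primed monolayers, treated aggregates, primed and treated aggregates). Over whole lists of 6 markers each, melanocyte genes summed to 16.2 to 107 CPM in the 12 libraries and 1.64 to 4.2 in the 9, mesenchymal genes to 22.1 to 47.8 and 5.04 to 11.1, and kidney genes to 0.439 to 1.19 and 5.5 to 42.5. The 5 measured brain genes summed to 14.7 to 25.0 CPM in all groups but the 2 with the late dose, where they reached 34.0 to 50.1. The part of these transcripts in the results below was not tested. A comparison across the sets cannot be told apart from a difference between the sets, which applies to primed against untreated monolayers, to both comparisons of treated with untreated aggregates, and to the late dose in primed aggregates. The cardiac myosin MYH7 was above 5 CPM in 6 libraries (untreated monolayers 1 and 2, acute monolayers 2 and 3, untreated aggregates 1 and 2), and the 9 measured genes of striated muscle summed to 75.9 to 227 CPM. In these bulk samples fewer cells of a type and less RNA per cell cannot be told apart.

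The 81 subunits together took between 0.875% and 1.16% of the counts of a library. The share was 1.08 ± 0.014% in untreated monolayers (mean ± SD, n = 3 here and below), 0.959 ± 0.017% in acute monolayers and 1.11 ± 0.042% in primed monolayers. It was 1.01 ± 0.047% in untreated aggregates, 0.883 ± 0.009% in primed, 0.924 ± 0.0093% in treated and 0.892 ± 0.012% in primed and treated aggregates. The untreated and primed monolayers and the untreated aggregates thus held the higher shares. Within the untreated aggregates, replicate 3 stood apart: 69 of the 81 members had their highest level of the group in it, 10 in replicate 1 and 2 in replicate 2. That library also lacked the MYH7 signal seen in the other two, and results that rest on it are given with and without it.

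**Figure D1:**
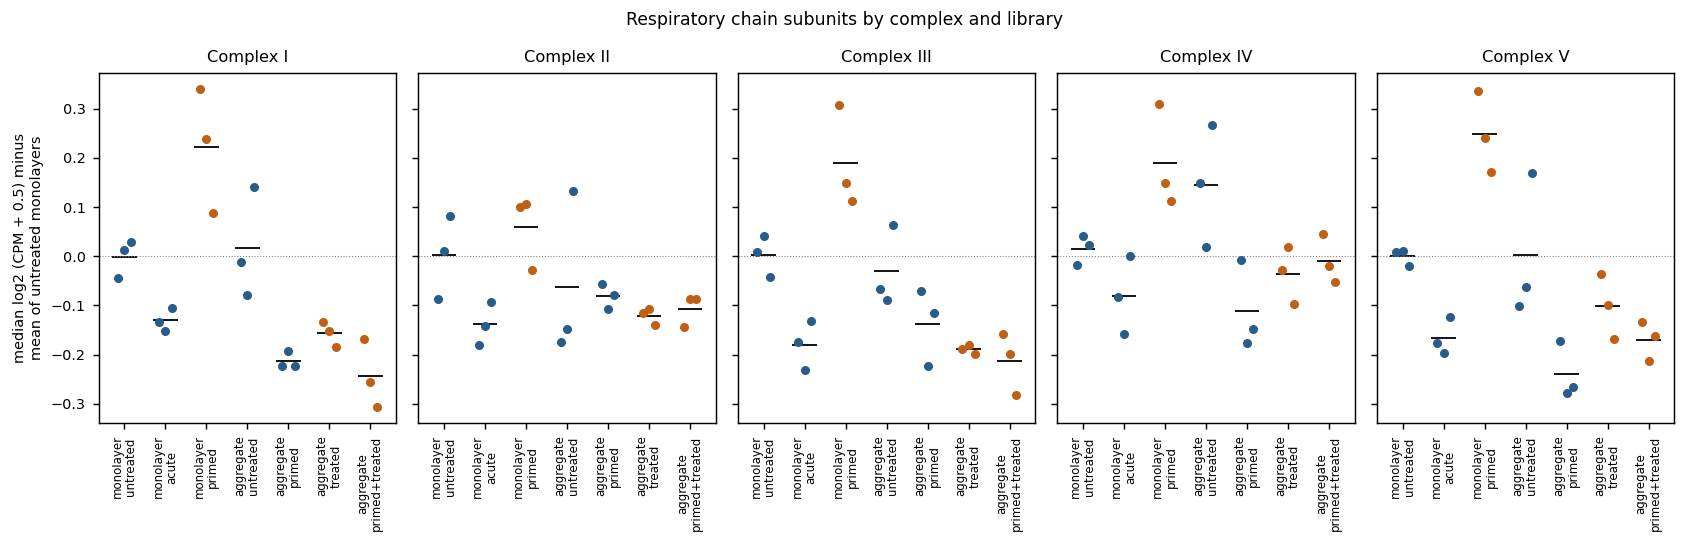
Median over the members of each complex of log2 (CPM + 0.5) minus its mean in untreated monolayers, 1 point per library and a bar for the mean of the group. Blue points are the 12 libraries with TYRP1 and POSTN and orange points the 9 with UMOD and SNAP25. Primed monolayers have the highest group means in complexes I, II, III, IV and V, and replicate 3 is the highest of the untreated aggregates in each complex.

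Per kilobase of exon the members covered a wide range of levels. NDUFB9, an accessory subunit of complex I, was the highest, with a mean of 1039 CPM per kilobase over all 7 groups, and in untreated monolayers it stood at percentile 99.89 of all genes with a known length. The other genes with a length within 1 Mb of NDUFB9 stood between percentiles 3.31 and 94.8. ATP5F1B, the catalytic beta subunit of the ATP synthase, followed with 671, and the complex IV subunits COX7C, COX7B and COX8A with 305, 293 and 218 CPM per kilobase. At the low end were NDUFA4L2 with 1.02, NDUFA3 with 2.96 and COX7B2 with 3.73 CPM per kilobase. NDUFA4L2 and COX7B2 are the paralogs of the widely expressed NDUFA4 and COX7B. The median over a complex in untreated monolayers was 106.8 CPM per kilobase for complex IV, 80.4 for II, 75.9 for V, 66.3 for III and 52.8 for I, so the order of the complexes did not follow the order of the chain.

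Promoters of 5 members on which the results below turn are printed here, because these genes moved in different directions between the same groups. Each is the 250 bases before a start site in RefSeq (GRCh38.p14), 5′ to 3′ on the strand of the gene, with matches to a set of short motifs in capitals. The window of ATP5MC2 lies inside the gene (chr12:53665170-53681423), before an internal start, while the other windows adjoin the 5′ end of their gene. The motifs, searched on both strands, were GCATGCGC (NRF1), CCGGAAG (ETS factors such as GABP), AAGATGGC (YY1), TCAAGGTCA (ERR) and ACGTG (HIF). NRF1 and GABP are known regulators of respiratory genes, ERR factors act with PGC-1 coactivators, and HIF binds its core motif under low oxygen. NDUFA4L2 lies at chr12:57240763-57241012 (minus strand, no match), CYCS at chr7:25125261-25125510 (minus strand, NRF1 and HIF letters), ATP5MC1 at chr17:48892537-48892786 (plus strand, no match), ATP5MC2 at chr12:53676084-53676333 (minus strand, NRF1 and HIF letters) and NDUFS3 at chr11:47578824-47579073 (plus strand, ETS and HIF letters).
NDUFA4L2: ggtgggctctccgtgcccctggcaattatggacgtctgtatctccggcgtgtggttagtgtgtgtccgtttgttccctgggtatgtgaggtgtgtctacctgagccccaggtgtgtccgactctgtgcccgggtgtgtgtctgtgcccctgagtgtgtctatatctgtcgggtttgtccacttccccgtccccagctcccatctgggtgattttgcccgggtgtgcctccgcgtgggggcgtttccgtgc
CYCS: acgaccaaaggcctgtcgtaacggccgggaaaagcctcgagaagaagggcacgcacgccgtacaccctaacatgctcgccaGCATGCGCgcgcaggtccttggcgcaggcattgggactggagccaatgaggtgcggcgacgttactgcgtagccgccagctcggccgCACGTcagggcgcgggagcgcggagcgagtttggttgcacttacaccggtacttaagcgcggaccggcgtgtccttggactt
ATP5MC1: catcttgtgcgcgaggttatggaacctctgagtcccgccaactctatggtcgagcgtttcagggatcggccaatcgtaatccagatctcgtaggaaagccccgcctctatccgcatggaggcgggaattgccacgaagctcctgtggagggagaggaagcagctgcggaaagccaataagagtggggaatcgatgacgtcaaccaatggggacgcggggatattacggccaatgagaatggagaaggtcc
ATP5MC2: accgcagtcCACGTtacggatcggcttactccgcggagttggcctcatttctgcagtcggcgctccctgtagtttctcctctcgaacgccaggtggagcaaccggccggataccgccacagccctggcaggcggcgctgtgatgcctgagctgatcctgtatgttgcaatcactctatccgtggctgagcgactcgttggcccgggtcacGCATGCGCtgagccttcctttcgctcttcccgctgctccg
NDUFS3: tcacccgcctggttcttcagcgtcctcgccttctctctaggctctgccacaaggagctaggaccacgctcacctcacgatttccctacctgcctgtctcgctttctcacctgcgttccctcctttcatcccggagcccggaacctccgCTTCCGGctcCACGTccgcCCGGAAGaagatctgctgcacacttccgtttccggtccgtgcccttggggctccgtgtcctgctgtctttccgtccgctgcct

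Of the 81 members, 67 had a promoter in the table and 14 had none. The NRF1 letters stood in 13 of the 67 windows (19.4%), against 2.81% of all 27305 promoters of the same length. The ETS letters stood in 17 (25.4% against 8.82%), the HIF letters in 16 (23.9% against 18.7%), the YY1 letters in 1 (1.49% against 1.37%) and the ERR letters in 0 (against 0.319%). Members with the NRF1 letters included CYCS, ATP5MC2, ATP5ME, NDUFS6, NDUFS7, SDHB, SDHD, COX5B and COX6A1. Among them CYCS was lower and ATP5MC2 higher in untreated aggregates than in untreated monolayers, so the letters did not mark 1 direction. A match describes these letters only.

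The subunits differed in both directions between untreated aggregates and untreated monolayers. These groups differ in culture form and in matrigel, and the monolayers have no stated culture time. Form, matrigel and time cannot be told apart here. Against untreated monolayers, 27 members were higher and 25 lower in untreated aggregates, where 32.9% of all tested genes were higher and 31.1% lower. These 33.3% and 30.9% of the members are close to the background, and the median log2 fold change of the 81 was 0.024 beside 0.01 over all genes. Complex IV had 6 members higher and 2 lower, complex I 12 and 13, complex III 3 and 2, complex V 5 and 6, and complex II 1 and 1. Leaving out untreated aggregate replicate 3 left 19 higher and 29 lower. Melanocyte markers summed to 48.3 to 107 CPM in untreated monolayers and 16.2 to 22.2 in untreated aggregates, and brain markers to 20.5 to 25.0 and 14.7 to 17.0. Their part in the result was not tested.

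NDUFA4L2, the paralog of NDUFA4 that is known as a hypoxia-induced gene, had the largest rise. Its levels were 0.225, 0.507 and 0.693 CPM in untreated monolayers, 0.549, 0.19 and 0.535 in acute and 0.205, 0.0639 and 0 in primed monolayers, against 2.41, 3.22 and 2.85 in untreated aggregates. It stood at 1.01, 2.04 and 1.62 CPM in primed, 1.5, 1.24 and 2.05 in treated and 1.93, 1.22 and 1.1 in primed and treated aggregates. Every aggregate library was above every monolayer library, although the counts were low, from 41 to 63 per library in untreated aggregates and from 4 to 15 in untreated monolayers. The log2 fold change was 2.52 (SE 0.37, adjusted p = 3.08e-07). NDUFA4 itself, a subunit of complex IV once assigned to complex I, stood at 219, 233 and 231 CPM in untreated monolayers and at 175, 177 and 213 in untreated aggregates. All 3 aggregate libraries were below the monolayers, with a log2 fold change of -0.27 (SE 0.06, adjusted p = 0.000161).

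The c ring of the ATP synthase is encoded by ATP5MC1, ATP5MC2 and ATP5MC3, whose products share the mature c subunit and differ in their import sequences. ATP5MC2 stood at 51.7, 57.7 and 52.7 CPM in untreated monolayers and at 110.2, 109 and 116 in untreated aggregates. ATP5MC1 stood at 39.2, 39.5 and 39.7 and 34.7, 33.2 and 34.5 CPM, and ATP5MC3 at 151, 149 and 143 and 134, 133 and 155. The libraries of ATP5MC2 and ATP5MC1 did not overlap between the groups, and went in opposite directions, while those of ATP5MC3 overlapped. The log2 fold changes were 1.05 (SE 0.078, adjusted p = 1.55e-12) for ATP5MC2, -0.21 (SE 0.066, adjusted p = 0.00581) for ATP5MC1 and -0.076 (SE 0.059, adjusted p = 0.264) for ATP5MC3. In primed and treated aggregates against primed monolayers, both in the other library set, ATP5MC2 was again higher, by 0.42 (SE 0.077, adjusted p = 2.22e-05), while ATP5MC1 fell by 1.14 (SE 0.066, adjusted p = 6.44e-17) and ATP5MC3 fell by 0.45 (SE 0.059, adjusted p = 3.52e-08). The 2 comparisons share no library.

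**Figure D2:**
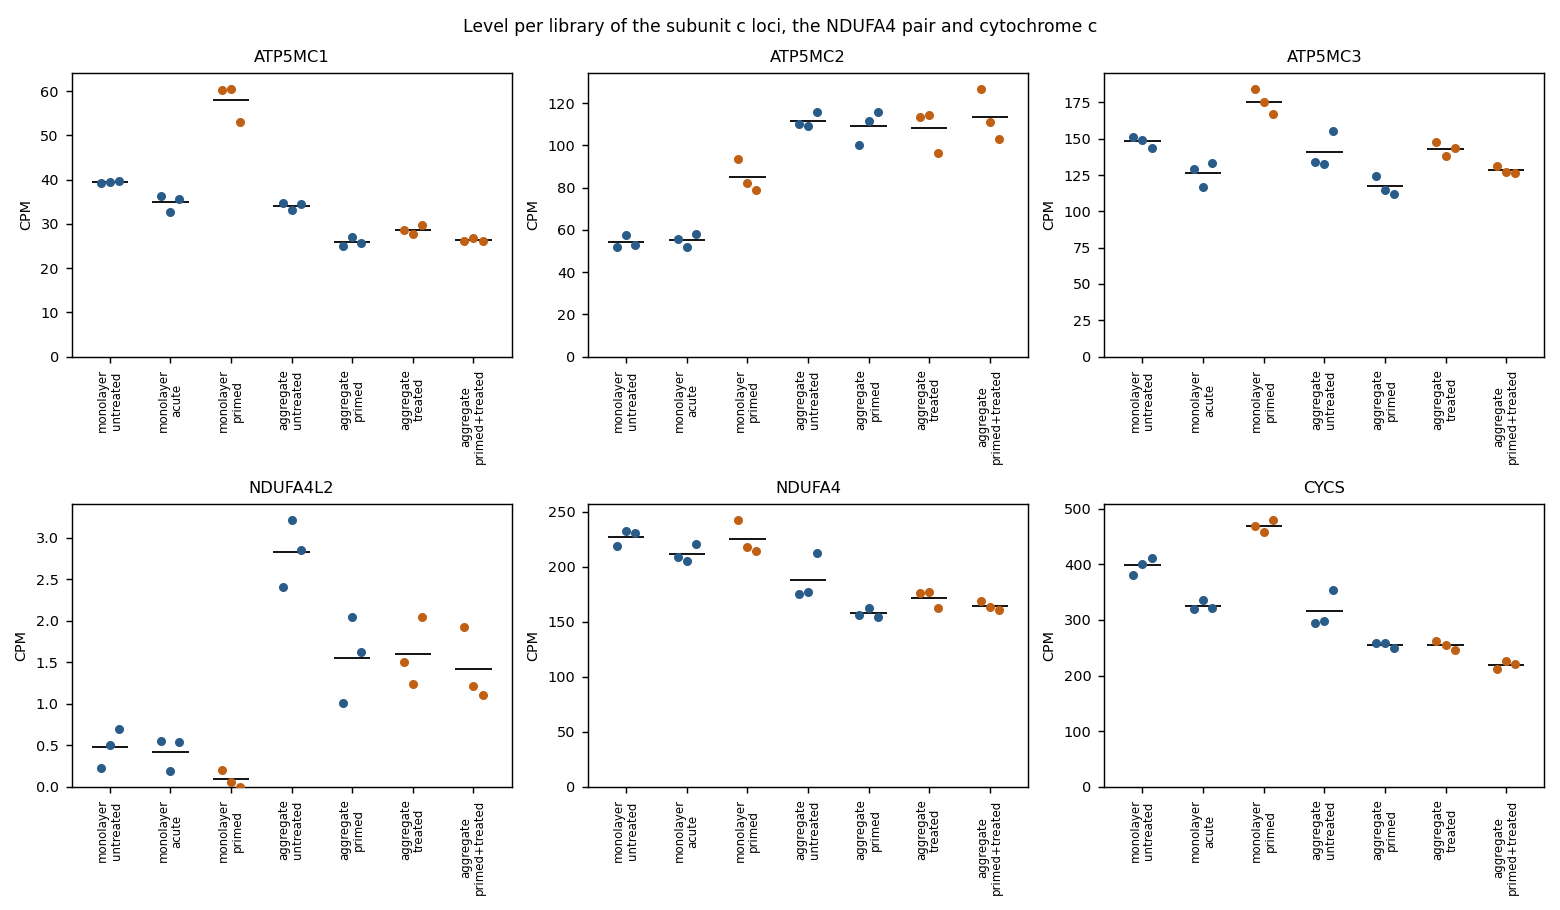
CPM per library of the 3 subunit c loci ATP5MC1, ATP5MC2 and ATP5MC3, the pair NDUFA4 and NDUFA4L2, and CYCS, with a bar for the mean of each group and colours by library set (blue with TYRP1 and POSTN, orange with UMOD and SNAP25). ATP5MC2 and NDUFA4L2 are higher in all 12 aggregate libraries than in all 9 monolayer libraries, and CYCS is highest in the 3 primed monolayers.

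Also higher in untreated aggregates were ATP5F1D, the delta subunit of the F1 central stalk, and CYC1, the heme-bearing cytochrome c1 of complex III. ATP5F1D went from 24, 21.9 and 24.6 to 48.5, 40.7 and 33.5 CPM, a log2 fold change of 0.80 (SE 0.17, adjusted p = 0.000599). CYC1 went from 178, 167 and 189 to 282, 260.2 and 243 CPM, a log2 fold change of 0.56 (SE 0.062, adjusted p = 1.95e-09). Both were chosen among members whose groups did not overlap. COX7A2L, which helps to join complexes III and IV into supercomplexes, was higher by 0.46 (SE 0.056, adjusted p = 9.99e-09).

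The largest fall was in complex I. NDUFS3, a core subunit next to the ubiquinone site, stood at 109, 103 and 122 CPM in untreated monolayers and 45.6, 48.8 and 52.4 in untreated aggregates. NDUFS1, the largest core subunit and a carrier of iron-sulfur clusters, stood at 240.0, 246 and 255 and 143, 151 and 166 CPM. No aggregate library reached the lowest monolayer for either gene, with log2 fold changes of -1.19 (SE 0.066, adjusted p = 3.15e-17) and -0.69 (SE 0.055, adjusted p = 4.5e-13). The accessory subunit NDUFA9 fell by 0.52 (SE 0.056, adjusted p = 6.5e-10). The complex IV paralog COX7B2, at 1.58 ± 0.178 CPM in untreated aggregates, fell by 0.78 (SE 0.25, adjusted p = 0.00698). Of the 7 core subunits of complex I 4 were lower and 2 higher (NDUFV1 and NDUFS7), while of the 29 accessory subunits 10 were higher and 9 lower. CYCS was lower, from 398 ± 15.1 to 315 ± 33.8 CPM, and ATP5F1B fell by 0.35 (SE 0.045, adjusted p = 3.76e-08). Without the 6 MYH7 libraries, which leaves 1 library in each of these 2 groups, 8 members were lower instead of 25.

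Part of the chain was lower in monolayers after acute trastuzumab. After 24 h 24 members were lower and 1 was higher, where 8.91% of all tested genes were lower and 11.3% higher. The share of members called lower was 29.6%, and the median log2 fold change of the 81 was -0.15 beside -0.017 over all genes. Complex V gave 8 of its 17 genes, complex I 8 of 36, complex III 5 of 10, complex IV 1 of 13 (COX7B) and complex II 1 of 4 (SDHD). The size was small, and no called member passed 0.38 in size on the log2 scale.

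NDUFS3 was again among the members that fell, from 109, 103 and 122 to 91.1, 87.5 and 88.8 CPM, with all 3 treated libraries below the untreated ones and a log2 fold change of -0.32 (SE 0.063, adjusted p = 0.00024). CYCS stood at 382, 401 and 411 CPM without and 320.3, 336 and 321 with trastuzumab. Again the groups did not overlap, and the log2 fold change was -0.29 (SE 0.054, adjusted p = 0.000143). NDUFS8, another core subunit with iron-sulfur clusters, fell by 0.33 (SE 0.078, adjusted p = 0.00234). The small accessory subunits NDUFB1 and NDUFC1 had log2 fold changes of -0.38 (SE 0.10, adjusted p = 0.00829) and -0.31 (SE 0.095, adjusted p = 0.0169). NDUFC1 was no longer called without acute monolayer replicate 2 (-0.31 with all libraries, -0.22 without it) or untreated monolayer replicate 2 (-0.26). CYC1 was the member that rose, from 178, 167 and 189 to 196, 217 and 218 CPM, a log2 fold change of 0.24 (SE 0.062, adjusted p = 0.00498), which lost its call without untreated monolayer replicate 2 (0.20). The number of members called lower was 13 without acute monolayer replicate 2 and 14 without untreated monolayer replicate 2, and 38 when counts were scaled to library totals alone. Without the 6 MYH7 libraries, which leaves 1 library in each group, it was 4.

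Primed monolayers, 96 h after the exposure, had higher levels of 44 of the 81 subunits than untreated monolayers. Besides these, 15 members were lower, where 33.7% of all genes were higher and 31.6% lower. The median log2 fold change was 0.22 beside 0.0088 over all genes, and 54.3% of members were higher. All 8 membrane subunits of complex V were higher, with a median of 0.46, whereas of the 5 subunits of its F1 head 1 was higher (ATP5F1D) and 2 lower (ATP5F1A and ATP5F1B). Complex I had 20 higher and 7 lower, complex III 6 and 2, complex IV 6 and 2, and complex II 1 (SDHA) and 1 (SDHD). The 2 groups belong to different library sets, and the untreated monolayers have no stated culture time. Priming can therefore not be told apart from the set or from the 96 h of further culture.

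ATP5F1D had the largest rise of primed monolayers. It stood at 24, 21.9 and 24.6 CPM in untreated and at 85.6, 71.1 and 64.3 in primed monolayers, the highest of all 7 groups, with a log2 fold change of 1.65 (SE 0.17, adjusted p = 2.03e-07). ATP5ME, subunit e at the dimer interface of the ATP synthase, went from 29.5, 34 and 26.1 to 61.8, 57.5 and 50.8 CPM. Its groups did not overlap and its log2 fold change was 0.92 (SE 0.088, adjusted p = 9.16e-11). The accessory subunits NDUFA7 and NDUFA3 rose by 0.74 (SE 0.11, adjusted p = 8.88e-07) and 0.66 (SE 0.19, adjusted p = 0.00357), both from a low level. CYCS reached its highest level of the series, 468, 457 and 480.3 CPM, and rose by 0.24 (SE 0.054, adjusted p = 0.000297).

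Of the 15 members lower in primed monolayers, 3 were core and 4 accessory subunits of complex I. NDUFS3 stood at 66.7, 64.9 and 57.4 CPM and NDUFS1 at 143, 140.2 and 159, all below the untreated monolayers, with log2 fold changes of -0.82 (SE 0.065, adjusted p = 4.01e-13) and -0.74 (SE 0.055, adjusted p = 8.62e-14). NDUFB5, of the membrane arm, fell by 0.61 (SE 0.063, adjusted p = 2.87e-10), with 104, 107 and 105 CPM against 144, 159 and 178. NDUFS8, by contrast, rose by 0.51 (SE 0.077, adjusted p = 8.52e-07) and NDUFV1, the flavin-bearing subunit, by 0.38 (SE 0.048, adjusted p = 2.29e-08), so the core subunits split 3 to 3. NDUFA4L2 had 4 counts in all over the primed monolayers, and its fitted fall of -2.41 (SE 0.72) rests on those and on 32 counts in untreated monolayers.

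In aggregates the calls lay on the other side. Primed aggregates had 42 members lower and 0 higher than untreated aggregates, where 9.66% of all genes were lower and 11.5% higher. At an unadjusted p under 0.05 edgeR had 0 members higher and 50 lower, and DESeq2 and limma voom also called 0 higher. With each library's trend on exon length taken out, 2 were called higher and 21 lower. Just 5 of 81 members had a positive log2 fold change, with a median of -0.21 beside -0.0002 over all genes. The falls took in 12 of 17 members of complex V (7 of its 8 membrane subunits), 16 of 36 of complex I, 7 of 13 of complex IV, 6 of 10 of complex III, CYCS, and 0 of 4 of complex II. Both groups belong to the same library set, but transcripts of other tissues differed between them without overlap. Melanocyte markers summed to 16.2 to 22.2 CPM in untreated and 53.4 to 91.3 in primed aggregates, and striated muscle markers to 200.3 to 222 and 138 to 146; their part in the result was not tested. Without untreated aggregate replicate 3 the count was 25.

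NDUFS8 stood at 51.2, 44.4 and 54 CPM in untreated and 33.7, 33.6 and 31.6 in primed aggregates, with no overlap and a log2 fold change of -0.60 (SE 0.083, adjusted p = 2.92e-06). ATP5MC1 stood at 34.7, 33.2 and 34.5 and 25, 27.1 and 25.7 CPM. It too did not overlap and fell by 0.39 (SE 0.069, adjusted p = 6.76e-05). COX7B, a small subunit of complex IV, went from 127, 137 and 165 to 116, 99.6 and 102 CPM, a log2 fold change of -0.43 (SE 0.084, adjusted p = 0.000622). In COX7B, as in CYCS (294, 298 and 354 against 258, 258 and 249 CPM), the untreated value of replicate 3 was the highest, and the other untreated libraries were still above every primed one. ATP5F1D fell by 0.64 (SE 0.17, adjusted p = 0.0137) with 48.5, 40.7 and 33.5 against 26.7, 25.8 and 26.3 CPM. Its call was lost without untreated aggregate replicate 1 (-0.51), the highest of that gene. The 3 subunits of complex III that fell most were UQCR11 (-0.38), UQCRQ (-0.31) and the Rieske iron-sulfur protein UQCRFS1 (-0.30, all log2 fold changes).

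**Figure D3:**
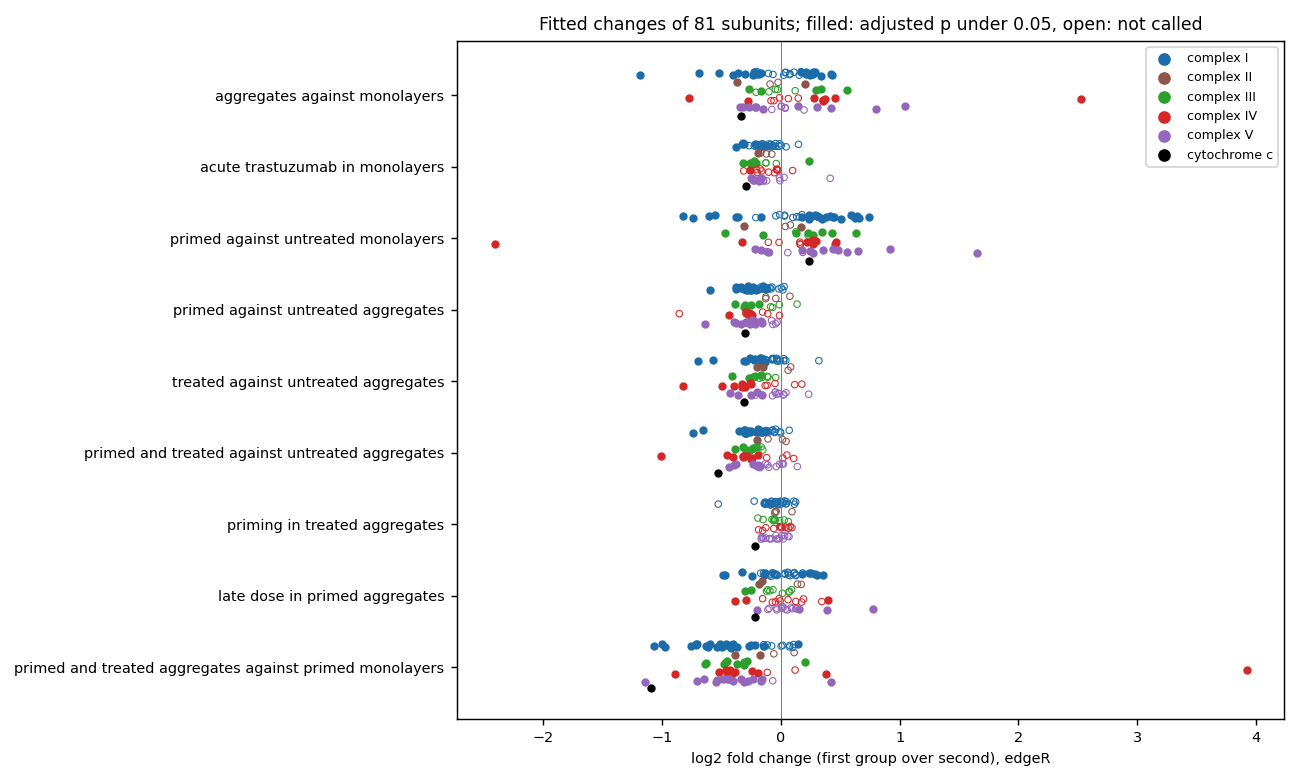
Log2 fold change from edgeR of each of the 81 members in the 9 pairwise comparisons, coloured by complex, with filled points for an adjusted p under 0.05 and open points for the rest. No point is called higher in the 3 comparisons of drug-exposed with untreated aggregates, and in primed and treated aggregates against primed monolayers 61 members are called lower.

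Treated aggregates, which met trastuzumab for the last 24 h, had 35 members lower and 0 higher than untreated aggregates, where 17.9% of all genes were lower and 18.8% higher. The median log2 fold change was -0.15. Aggregates both primed and treated had 43 lower and 0 higher, where 17.9% of all genes were lower and 17.6% higher, with a median of -0.19. Complex IV gave 8 of its 13 members in the first and 9 in the second, complex III 5 and 6 of 10, complex V 5 and 8 of 17, complex I 14 and 18 of 36. At an unadjusted p under 0.05 edgeR also had 0 higher in each, and so had DESeq2 and limma voom after adjustment. With the trend on exon length taken out, 3 were called higher in treated aggregates and 0 in primed and treated ones. Both comparisons share the untreated aggregates with the one above, and cross the library sets. Without untreated aggregate replicate 3, 22 and 31 members were lower and 1 was higher in each, and without treated aggregate replicate 3, 23 were lower in treated aggregates.

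NDUFC2, an accessory subunit at the membrane arm of complex I, stood at 51.5, 56.6 and 67.3 CPM in untreated, 32.7, 37.2 and 38.3 in treated and 33.1, 37.1 and 34.9 in primed and treated aggregates. Every library with the late dose was below every untreated aggregate, with log2 fold changes of -0.70 (SE 0.09, adjusted p = 3.94e-07) and -0.74 (SE 0.089, adjusted p = 1.61e-07). NDUFS7, the core subunit with the last iron-sulfur cluster before ubiquinone, stood at 54.1, 54.5 and 55.3, 35.9, 38 and 36.6 and 35.5, 34.2 and 34.5 CPM. It also did not overlap, with log2 fold changes of -0.57 (SE 0.093, adjusted p = 1.99e-05) and -0.65 (SE 0.093, adjusted p = 3.14e-06). COX7A2L had log2 fold changes of -0.49 (SE 0.056, adjusted p = 1.58e-08) and -0.40 (SE 0.056, adjusted p = 8.18e-07), from 141, 136 and 156 to 102, 107 and 99.5 and 108, 114 and 106 CPM. NDUFA4L2 had log2 fold changes of -0.82 (SE 0.31, adjusted p = 0.0362) and -1.01 (SE 0.31, adjusted p = 0.0114), and neither call was stable. The first was lost without untreated aggregate replicate 2 or 3 (-0.72 and -0.82) or treated replicate 1 or 2 (-0.78 and -0.67), and the second without untreated aggregate replicate 2 (-0.91) or primed and treated replicate 2 or 3 (-0.92 and -0.86). CYCS had log2 fold changes of -0.31 (SE 0.055, adjusted p = 2.94e-05) and -0.53 (SE 0.055, adjusted p = 3.1e-09), and its levels with both exposures, 212, 225 and 220.3 CPM, were the lowest of the series.

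The first and the late exposure were also separated in pairs within the drug-exposed aggregates. Among aggregates given the late dose, 1 member was lower with priming, CYCS (263, 255 and 246 CPM without and 212, 225 and 220.3 with priming, log2 fold change -0.22, SE 0.055, adjusted p = 0.00966), and 0 were higher, also at an unadjusted p under 0.05 and by DESeq2 and limma voom. Of all genes 4.8% were lower and 3.18% higher, and the median of the 81 was -0.043. The call of CYCS was lost without treated replicate 1 or primed and treated replicate 1 (-0.19 in both). At an unadjusted p under 0.05 edgeR had 13 lower, DESeq2 called 3 after adjustment, and a fit of these 2 groups alone called 8.

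Among primed aggregates, the late dose went with 10 members higher and 14 lower, where 14.9% of all genes were higher and 14.8% lower, and with a median of 0.0053. These 12.3% and 17.3% of the members are near the background. ATP5F1D rose from 26.7, 25.8 and 26.3 to 50.4, 43 and 41.9 CPM (log2 fold change 0.78, SE 0.17, adjusted p = 0.00212), ATP5ME from 30.4, 31 and 30.9 to 41.2, 41.7 and 38.2 (log2 fold change 0.39, SE 0.089, adjusted p = 0.000965) and COX6C by 0.40 (SE 0.097, adjusted p = 0.00387). NDUFS7 fell from 44.6, 54.9 and 46.1 to 35.5, 34.2 and 34.5 CPM (log2 fold change -0.48, SE 0.093, adjusted p = 0.000235). NDUFC2, COX7A2L and NDUFB5 were lower too, with log2 fold changes of -0.47 (SE 0.09, adjusted p = 0.000208), -0.39 (SE 0.056, adjusted p = 1.99e-06) and -0.33 (SE 0.063, adjusted p = 0.000112). These 7 genes were chosen among those without overlap between the 2 groups. The groups cross the library sets, and the counts were 6 higher without primed aggregate replicate 3 and 9 lower without primed aggregate replicate 2. NDUFS8, higher by 0.30 (SE 0.082, adjusted p = 0.00493), was not called without primed and treated replicate 1 (0.23).

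The broadest difference lay between primed and treated aggregates and primed monolayers, which belong to one library set. There 61 members (75.3%) were lower and 5 higher, where 32.1% of all genes were lower and 31.9% higher. The median log2 fold change of the 81 was -0.40 beside 0.019 over all genes. Complex V gave 15 of 17 lower, complex III 9 of 10, complex IV 9 of 13, complex I 25 of 36 and complex II 2 of 4. The groups differ in culture form, in matrigel, in the late dose and in age at once. Transcripts of other tissues also differed between them without overlap. Striated muscle markers summed to 75.9 to 80.5 CPM in primed monolayers and 118 to 130 in primed and treated aggregates. Brain markers summed to 21.6 to 23.4 and 34.0 to 46.5 CPM, and the part of either in the result was not tested.

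CYCS stood furthest apart by its test, with 468, 457 and 480.3 CPM in primed monolayers and 212, 225 and 220.3 in primed and treated aggregates (log2 fold change -1.10, SE 0.055, adjusted p = 1.51e-18). NDUFS6, a zinc-binding accessory subunit, stood at 164, 155 and 126 and 73.9, 69.7 and 68.2 CPM, and NDUFS8 at 93.4, 77.3 and 74.1 and 44.9, 40.3 and 37.1. These members were chosen among those without overlap. The log2 fold changes of NDUFS6 and NDUFS8 were -1.07 (SE 0.078, adjusted p = 1.49e-12) and -1.0 (SE 0.079, adjusted p = 4.77e-13). The 5 members that were higher were NDUFA4L2, ATP5MC2, COX7A2L (log2 fold change 0.38, SE 0.058, adjusted p = 5.28e-07), the ubiquinone-binding UQCRB of complex III (log2 fold change 0.21, SE 0.088, adjusted p = 0.0414) and the accessory subunit NDUFA10 (log2 fold change 0.15, SE 0.049, adjusted p = 0.00885). The call of UQCRB was lost without any single one of 5 of these 6 libraries, with values from 0.15 to 0.22. NDUFA4L2 rose from 4 counts over the 3 primed monolayers to 102 over the primed and treated aggregates, with a fitted log2 fold change of 3.92 (SE 0.59, adjusted p = 5.48e-07).

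For some members the difference with priming was not the same with and without the late dose. The contrast of priming in treated aggregates minus priming in untreated ones was called for 12 members, each with a positive value, where 12.5% of all genes were called in either direction. The 14.8% of members is near that share, but the share counts both directions. Of the other genes under 1000 bases of exon 12.1% were called positive and 1.96% negative. Of the longer other genes 5.18% were positive and 8.61% negative. Among the members 25% of the short and 6.82% of the longer ones were called, all positive. The median of the contrast over the 81 was 0.15 beside 0.0016 over all genes. All 13 members of complex IV were positive, 4 of them called (COX7B, COX5B, COX8A and COX6B1). NDUFS8 had the largest called value, 0.50 (SE 0.11, adjusted p = 0.00304): its log2 fold change with priming was -0.60 (SE 0.083) in aggregates without the late dose and -0.10 (SE 0.079) in those with it. COX7B followed with 0.44 (SE 0.12, adjusted p = 0.0148), from -0.43 (SE 0.084) without and 0.0082 (SE 0.083) with the late dose. The late dose and the library set moved together in this contrast. The 12 calls fell to 3 without untreated aggregate replicate 3, without treated replicate 3 or without primed and treated replicate 1, and to 6 without any one of primed replicates 2 and 3, treated replicate 1 or primed and treated replicate 2.

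Across the 9 pairwise comparisons, which share groups and are not independent, CYCS was called most often, lower in 8 and higher in 1 (primed monolayers). ATP5F1B was lower in 7 and never called higher, but 3 of these calls rested on single libraries. In primed aggregates it was lost without untreated aggregate replicate 3 (-0.13), in treated aggregates without treated replicate 3 (-0.12), and in primed monolayers without untreated monolayer replicate 1 or 2 or primed monolayer replicate 2 or 3 (-0.11 to -0.093). Its levels were 1514 ± 18.2 CPM in untreated monolayers, 1346 ± 6.16 in acute, 1406 ± 30.8 in primed, 1192 ± 58 in untreated aggregates, 1067 ± 14.2 in primed, 1071 ± 40.4 in treated and 1041 ± 7.8 in primed and treated aggregates. The partner alpha subunit ATP5F1A was lower in 4. ATP5MC2 (3 rises), COX7C (2) and NDUFV3 (1) were called in the upward direction alone.

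Complex II, which is also an enzyme of the citric acid cycle, held the one member called in none of the 9 comparisons, its membrane anchor SDHC. The group means of SDHC ran from 132 ± 5.28 CPM in primed aggregates to 155 ± 2.35 in primed monolayers, and replicate 3 of the untreated aggregates (173.9 CPM) was its highest library. SDHA, the flavoprotein, was higher in untreated aggregates than in untreated monolayers by 0.20 (SE 0.049, adjusted p = 0.000609), whereas the iron-sulfur subunit SDHB fell by 0.37 (SE 0.066, adjusted p = 1.02e-05). The groups did not overlap for either gene (312, 328 and 348 against 370.2, 375 and 390.2 CPM for SDHA, 92.4, 101 and 108 against 74.2, 74.7 and 85.3 for SDHB). SDHD, the other anchor, fell by 0.31 (SE 0.061, adjusted p = 3.6e-05) in primed against untreated monolayers.

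Among the paralogs, COX7B2 stayed between 1.28 ± 0.0401 CPM in primed aggregates and 3.04 ± 0.753 in primed monolayers, beside 106 ± 8.94 and 161 ± 15.3 for COX7B. The ubiquitous forms COX6A1, COX6B1, COX7A2 and COX8A were measured alone, since no row of the count table carried the symbols of their tissue-specific partners. COX7A2 went from 90.5, 91.2 and 93.1 CPM in untreated monolayers to 107, 111 and 133 in untreated aggregates (log2 fold change 0.35, SE 0.062, adjusted p = 7.26e-06), with no overlap. It stood at 97.7, 101 and 96.4 CPM in primed aggregates (log2 fold change -0.25, SE 0.062, adjusted p = 0.00338), a call lost without untreated aggregate replicate 3 (-0.15). COX6A1 had log2 fold changes of -0.30 (SE 0.079, adjusted p = 0.00317) in treated aggregates and -0.45 (SE 0.079, adjusted p = 3.08e-05) in primed and treated ones. COX4I1, outside the rule, rose by 0.15 (SE 0.056, adjusted p = 0.017) in untreated aggregates and fell by 0.27 (SE 0.056, adjusted p = 0.000498) in primed ones. Of the 4 genes of its list 1 was higher and 2 lower in untreated aggregates, and 3 were lower in primed ones. Of all tested genes 32.9% were higher and 31.1% lower in untreated aggregates, and 9.66% were lower in primed ones. Of the non-coding neighbours NDUFB2-AS1 was higher in primed monolayers, by 0.55 (SE 0.24, adjusted p = 0.042), and it overlaps a coding member, so its reads may belong to either. UQCRH and UQCRHL are near-identical copies, and several small subunits have processed copies elsewhere in the genome, so that how reads were divided between copies is uncertain.

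Most of these genes are short. Of the 80 members with a known exon length, 36 were under 1000 bases, and their median was 1125.5 bases against 3415 for the other tested genes. The 562 other genes under 1000 bases moved in some of the same directions, with median log2 fold changes of 0.20 in aggregates against monolayers, 0.19 in primed monolayers, -0.15 in primed, -0.12 in treated and -0.088 in primed and treated aggregates, and -0.12 between primed and treated aggregates and primed monolayers. The short members had medians of 0.094, 0.29, -0.24, -0.17, -0.20 and -0.42 in the same comparisons, and the 44 longer ones -0.062, 0.091, -0.17, -0.14, -0.18 and -0.28, where the longer other genes lay between -0.0051 and 0.012. In the acute comparison the short and the long members had medians of -0.15 and -0.14, the other short genes -0.049. With each library's trend on exon length taken out, 21 members were lower in primed aggregates and 2 higher, 22 lower and 3 higher in treated aggregates, 42 lower in primed and treated aggregates, 24 lower after acute exposure, and 58 lower in primed and treated aggregates against primed monolayers. In primed aggregates 16 of the 42 first calls were kept, and in treated ones 20 of 35. For primed and treated aggregates 37 of 43 were kept. In primed monolayers 30 were then higher and 18 lower, instead of 44 and 15. The contrast between the responses to priming was then called for 3 members instead of 12. Without that correction, 38.6% of the longer members were higher in primed monolayers, beside 35.6% of the longer other genes, and 29.5% lower, beside 33.6%. Of the short members 72.2% were higher there, beside 44.0% of the other short genes. The part of length in these results was not tested beyond this, and the length of 1000 bases was chosen after the data were seen.

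**Figure D4:**
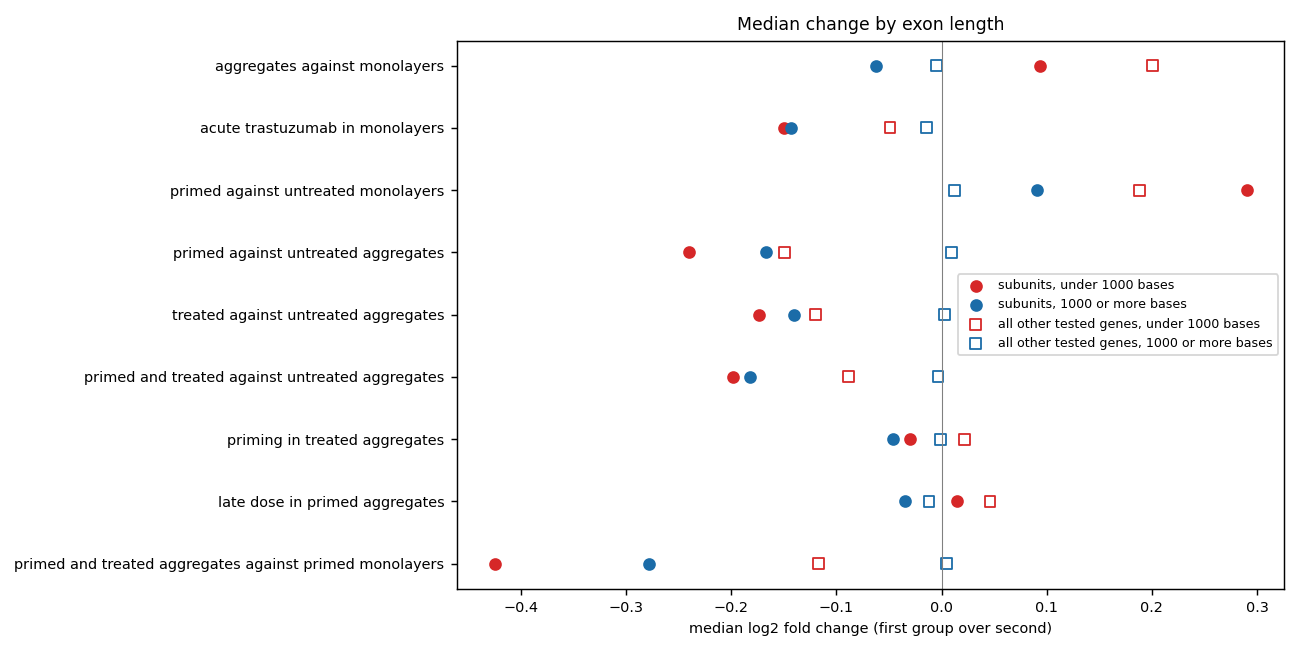
Median log2 fold change in each comparison of members (filled circles) and of all other tested genes (open squares) with exons under 1000 bases (red) or of 1000 bases or more (blue). The members lie to the left of the other genes of their length class in the 3 comparisons of drug-exposed with untreated aggregates and after acute exposure, and short genes of both kinds lie to the right in primed monolayers.

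The 13 subunits encoded in mitochondrial DNA were counted apart from the nuclear ones, with which they form complexes I, III, IV and V. In untreated aggregates against untreated monolayers 3 of 13 were higher and 7 lower, where 32.9% of all tested genes were higher and 31.1% lower. ND2, of complex I, fell from 4063, 4351 and 4123 to 1729, 1911 and 1789 CPM (log2 fold change -1.21, SE 0.049, adjusted p = 6.55e-21), and ND1 fell by 0.70 (SE 0.049, adjusted p = 1.63e-14). ND6 rose from 816, 821 and 754 to 1637, 1812 and 1860.2 (log2 fold change 1.15, SE 0.06, adjusted p = 5.64e-18) and ND5 by 0.57 (SE 0.062, adjusted p = 7.14e-10). The groups did not overlap in ND2 or ND6. ND6 is the one protein gene on the other strand of mitochondrial DNA, and as the strand setting of the counting is not given in the sources used here, its reads and reads antisense to its neighbours cannot be told apart. In treated aggregates against untreated ones 9 of the 13 were higher and 1 lower (COX1), with a median of 0.42, while the nuclear members had 0 higher and 35 lower. Of all tested genes 18.8% were higher and 17.9% lower there. In primed aggregates 3 were higher (ND1, COX1 and ND2) and 0 lower, where 11.5% of all tested genes were higher and 9.66% lower. The 2 mitochondrial rRNAs took a share of 0.793% to 1.14% in the 9 monolayer libraries. Aggregates had more: 2.50% to 2.77% when untreated or primed, 2.13% to 2.36% when primed and treated, and 1.52% to 1.71% when treated.

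**Figure D5:**
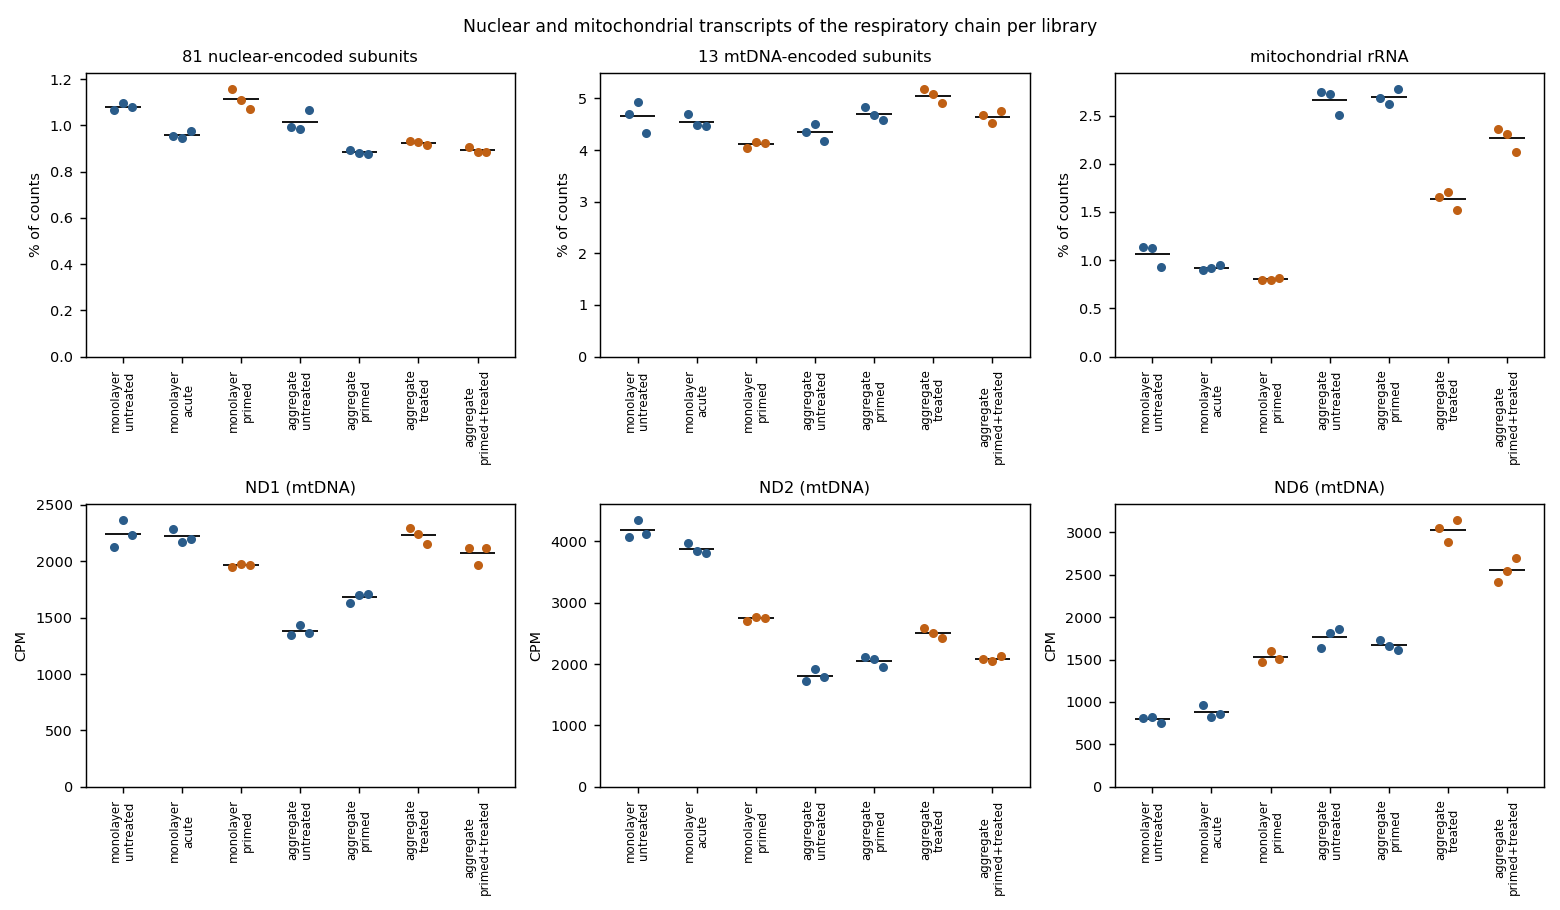
Share of the counts of each library taken by the 81 nuclear-encoded subunits, the 13 subunits encoded in mitochondrial DNA and mitochondrial rRNA (upper row), and CPM of ND1, ND2 and ND6 (lower row), with a bar for the mean of each group. Axes start at 0 and colours mark the 2 library sets (blue with TYRP1 and POSTN, orange with UMOD and SNAP25). Mitochondrial rRNA is higher in all 12 aggregate libraries than in all 9 monolayer libraries, and ND2 is lower in them.

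Genes that build or serve the chain were counted list by list, and those named were chosen after their values were seen. In untreated aggregates, where 32.9% of all tested genes were higher and 31.1% lower, the assembly factors of complex II rose, 4 of 4, led by SDHAF4 (2.41, 2.54 and 2.17 against 9.58, 9.45 and 10.8 CPM, log2 fold change 2.06, SE 0.16, adjusted p = 3.72e-13), which helps to assemble SDHA into the complex. For complex III UQCC3 rose from 3.09, 3.74 and 2.82 to 32.4, 33.6 and 34 CPM (log2 fold change 3.36, SE 0.12, adjusted p = 8.63e-23) and for complex V ATPAF1, a chaperone of the F1 head, from 14.6, 16.7 and 16.1 to 47.1, 42.9 and 41.3 (log2 fold change 1.46, SE 0.088, adjusted p = 2.68e-16). None of these overlapped between the groups. UQCC3 stood at 26.4, 27.1 and 24 CPM in primed monolayers and SDHAF4 at 0.479, 0.447 and 0.949. Of 25 assembly factors of complex IV 9 (36%) were higher and 7 (28%) lower in untreated aggregates, near the share over all genes, with a median log2 fold change of 0.044. In treated aggregates 1 was higher and 12 lower, where 18.8% of all tested genes were higher and 17.9% lower. Of 17 for complex I 7 were higher and 7 lower in untreated aggregates, of 6 for complex III 4 and 2, and of 5 for complex V 2 and 1. In the same comparison the 12 genes for heme A and iron-sulfur clusters had 3 higher and 7 lower, the 11 for cardiolipin and cristae 5 and 4, and the 9 for uncoupling and other routes of electron entry 2 and 2. In primed aggregates these 3 lists had 0, 1 and 3 higher and 6, 5 and 0 lower. Of all tested genes 11.5% were higher and 9.66% lower there.

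The 78 proteins of the mitochondrial ribosome, which translates the mitochondrial transcripts, were counted in the same way. They had 41 higher and 16 lower in primed monolayers (median 0.23), 0 higher and 17 lower in primed aggregates (-0.12), 1 and 29 in treated ones (-0.15), and 4 and 8 after acute exposure (-0.078). Of all tested genes 33.7% were higher and 31.6% lower in primed monolayers. The shares were 11.5% and 9.66% in primed aggregates, 18.8% and 17.9% in treated ones, and 11.3% and 8.91% after acute exposure. Of 14 citric acid cycle genes 2 were higher and 8 lower in untreated aggregates, where 32.9% of all tested genes were higher and 31.1% lower. After acute exposure 7 of the 14 were lower, and 5 were in primed aggregates. IDH2 was among the 2 that were higher in untreated aggregates (log2 fold change 1.02, SE 0.05, adjusted p = 9.65e-19).

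A list of 9 measured genes known to be induced by HIF and acting on mitochondria, NDUFA4L2 among them, had 7 higher and 1 lower in untreated aggregates, and 7, 9 and 9 lower in primed, treated, and primed and treated aggregates, with none higher. Of all tested genes 32.9% were higher and 31.1% lower in untreated aggregates. The shares lower in primed, treated, and primed and treated aggregates were 9.66%, 17.9% and 17.9%. PDK1, a kinase that inhibits pyruvate dehydrogenase, stood at 16.8, 17.1 and 16.7 CPM in untreated monolayers, 59.1, 59.7 and 64.3 in untreated aggregates and 25, 25.3 and 24.2 in treated ones. Its groups did not overlap, with log2 fold changes of 1.85 (SE 0.076, adjusted p = 7.6e-21) and -1.30 (SE 0.073, adjusted p = 2.36e-15). Of the 13 regulators 6 were higher and 2 lower in untreated aggregates, beside 32.9% and 31.1% of all tested genes. NRF1 rose there by 0.82 (SE 0.074, adjusted p = 7.8e-12), and in primed and treated aggregates it fell by 0.59 (SE 0.072, adjusted p = 6.25e-08). The coactivator PPARGC1B fell by 0.69 (SE 0.066, adjusted p = 3.91e-11) in untreated aggregates and rose in treated ones by 0.48 (SE 0.066, adjusted p = 4.86e-07). Their levels beside those of the subunits are a description, and no link between them was tested.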

How the data were processed

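The deposited table holds whole-number counts per gene for 21 libraries. Per the labels' protocols RNA was taken up in TRIzol and libraries followed TruSeq; per the submitters' processing notes the authors used featureCounts, limma and hg38, without versions. The annotation and the strand setting are not given in the sources used here. Columns were matched to samples by title, and those of the primed aggregates, whose titles lack the word primed, by elimination. Counts were tested in edgeR 4.0.16 (R 4.3.3): TMM scaling, filterByExpr by group (584 genes with 0.0116% of counts removed), 1 mean per group in 1 robust quasi-likelihood fit, 14 residual degrees of freedom, two-sided tests, adjusted by Benjamini-Hochberg over 15969 genes in each of 9 comparisons and 1 difference between responses. SE is the log2 fold change over the root of F. CPM use TMM-scaled totals. Medians by library add 0.5 to CPM.

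Members and lists were chosen with earlier results of these data known. Named with values were, per comparison, up to 4 called members with the largest rise and 4 with the largest fall whose libraries did not overlap, the paralog pairs, the electron carriers, complex II and the catalytic subunits; other members and list genes were named after their values were seen. Exon lengths (GENCODE release for GRCh38) and promoters (RefSeq, GRCh38.p14) were matched by gene identifier. Replicates differed by 2.48 to 11.5 times the counting variance (chi-squared per degree of freedom), and the biological coefficient of variation was 5.98%. Tested on simulated data for primed against untreated aggregates (15470 genes), 4% of 100 genes with a simulated 1.15-fold change and 46% of 100 with a 1.3-fold one were recovered, and 0% of the calls were false. Only these genes were changed, drawn without regard to level, whereas 11.5% of all genes were higher and 9.66% lower in the data. The adjustment was therefore stricter in the simulation, and its rates do not give the recovery of the members. Alternatives were RLE factors, library totals, no filter, DESeq2 1.42.0, limma voom 3.58.1, a separate fit for each pair of groups, a block term for the replicate number, omission of single replicates or of the 6 MYH7 libraries and, added after the data were seen, removal of the length trend.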

Additional observations from a re-analysis of the deposited data

Results flagged for a closer look

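In 12 members the response of aggregates to priming differed with the late dose, by edgeR's test of the difference itself (adjusted p under 0.05; log2 fold change of priming in treated minus that in untreated aggregates). These are 14.8% of the members, all positive, beside 12.5% of all genes called in either direction. Among other genes 12.1% of those under 1000 bases of exon and 5.18% of the longer ones were called positive. Without untreated aggregate replicate 3, treated replicate 3 or primed and treated replicate 1, 3 members were called. For complex I the 12 included NDUFS8 (0.50, adjusted p = 0.00304), NDUFB3 (0.42, 0.0344), NDUFB7 (0.34, 0.0375) and NDUFB8 (0.30, 0.0256). For complex III they were UQCR10 (0.32, adjusted p = 0.0188) and UQCR11 (0.34, 0.0304). For complex IV they were COX7B (0.44, adjusted p = 0.0148), COX5B (0.35, 0.0452), COX8A (0.32, 0.0289) and COX6B1 (0.24, 0.0375). For complex V they were ATP5ME (0.37, adjusted p = 0.0457) and ATP5F1C (0.22, 0.0465). Each of the 12 had a negative value for priming without the late dose, from -0.60 in NDUFS8 to -0.16 in ATP5F1C. Of all 81 members 5 had a positive value there, and the contrast subtracts this value. The negative sign is thus no separate trait of the 12. Of the 12, 9 have exons under 1000 bases, and 1 of the 12 was called with the length trend taken out. The late dose cannot be told apart from the library set in this contrast.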

How the results depend on the processing

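Of the recomputed counts of members called, 252 were within 1.5 times the reported one and 39 were not. Scaling to library totals gave 38 lower after acute exposure, 17 higher with the late dose in primed aggregates and 8 higher in primed and treated aggregates against primed monolayers. For priming in treated aggregates a fit of only these groups gave 8 lower, DESeq2 3 and the length trend removed 5. Limma voom gave 2 higher after acute exposure. Without the 6 MYH7 libraries, which leaves untreated monolayers, acute monolayers and untreated aggregates with 1 library each whose spread is taken from the other groups, 8 were lower in aggregates against monolayers, 0 higher and 4 lower after acute exposure, 1 higher each in treated and in primed and treated aggregates, and 25 differed between the responses to priming. Of single members it turned COX7B to 0.33 and SDHC to 0.25 in aggregates against monolayers, and SDHC to -0.19 in treated and -0.23 in primed and treated aggregates. With the length trend removed 38 were lower in aggregates against monolayers, 2 higher and 21 lower in primed aggregates, 3 higher and 22 lower in treated ones, and 3 differed between the responses. It also turned SDHC to 0.24 in aggregates against monolayers and COX6B1 to -0.0033 in primed monolayers. Except for fewer samples or genes in a fit, the cause was not tested.

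Leaving out 1 library gave these ranges. Aggregates against monolayers had 19 to 30 higher and 18 to 29 lower. Acute exposure had 0 to 2 higher and 13 to 21 lower. Primed monolayers had 40 to 47 higher and 13 to 16 lower. Primed aggregates had 0 higher and 25 to 46 lower, treated ones 0 to 1 and 22 to 37, and primed and treated ones 0 to 1 and 31 to 49. Priming in treated aggregates had 0 higher and 0 to 2 lower, the late dose 6 to 14 higher and 9 to 13 lower, and primed and treated aggregates against primed monolayers 4 to 5 higher and 57 to 61 lower. The difference between responses had 3 to 15. Replicate numbers did not pair the samples: the correlation of deviations was over 0.1 in 5 of 63 same-numbered pairs (-0.16 to 0.19). With the replicate number as a block the counts were, for example, 42 lower in primed aggregates and 10 differing between responses, and every count stayed within 1.5 times. The simulated 1.15-fold changes were mostly missed, but few genes were changed in the simulation, so it does not give the recovery of the members. A member not called need not be unchanged.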
